A study of Homo sapiens with 9 samples.

Results

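The genes described here are 42 genes of the G2/M transition and mitosis, given as a list of symbols and read from the table of 58676 genes in HaCaT cells, an immortalised human keratinocyte line. Of the 42, 41 were matched by symbol and SGO1, which the table carries under the older symbol SGOL1, by gene ID. All 42 passed the filter on low counts, among 16239 genes tested. Total RNA was sequenced in 9 libraries, with 3 libraries in each of 3 groups. The groups were 10 µM PRL-295, 250 nM CDDO-Me and 1% DMSO, each applied for 14 h, with DMSO as the control. CDDO-Me, or bardoxolone methyl, is a triterpenoid with an electrophilic group, known to switch on the antioxidant regulator NRF2. PRL-295 is a code name, and the study's title speaks of non-electrophilic NRF2 activators. The sources used here do not say whether cultures given a compound also held DMSO, nor whether replicate libraries derive from independent cultures, so the p-values measure only the spread between these libraries.

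A cell enters mitosis when CDK1, bound to a B-type cyclin, is freed of its inhibitory phosphates by CDC25 phosphatases. Polo-like and Aurora kinases then build the spindle, kinetochores attach chromosomes to it, and the spindle checkpoint holds back the anaphase-promoting complex until every chromosome is attached. Activation of that complex by CDC20 releases the sister chromatids and destroys cyclin B, and midzone proteins guide cytokinesis. Most of these genes are transcribed in a wave in G2 and mitosis, from promoters that carry a cell cycle homology region bound by MuvB complexes, and from CCAAT boxes bound by NF-Y. In keratinocytes, cycling is a property of the basal layer, and cells leave the cycle as they differentiate.

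Promoter sequences show what the members share that the list did not use. RefSeq promoters (build GRCh38.p14) were at hand for 35 of the 42 members. The 250 bases before each start were searched on both strands for TTTGAA and TTCGAA, forms of the core of the cell cycle homology region, and for CCAAT. Other forms of that core were not searched, so a promoter without these letters may still hold the region. The hexamer TTTGAA occurred in 18 of 35 member promoters (51.4%), against 8.2% of 10424 promoters of tested genes and 13.6% of all 27305 promoters. TTCGAA occurred in 0 of 35, against 1.39% of promoters of tested genes and 1.2% of all promoters. CCAAT occurred in 26 of 35 (74.3%), against 35% of promoters of tested genes and 33% of all promoters. TTTGAA and CCAAT occurred together in 16 of 35 (45.7%), against 3.37% of promoters of tested genes and 4.85% of all promoters. The 120 bases that end just before the RefSeq start are shown for 6 members that hold TTTGAA, for CCNB1, which holds CCAAT alone, and for NDC80, which holds neither, and KIF23 and NDC80 are among the members that passed the test described further on. Capitals mark TTTGAA or its reverse complement TTCAAA, and CCAAT or its reverse complement ATTGG. All are on the plus strand, at chr15:59105026-59105145 (CCNB2), chr1:43358861-43358980 (CDC20), chr16:23678769-23678888 (PLK1), chr5:163460512-163460631 (HMMR). The others lie at chr7:36389742-36389861 (ANLN), chr15:69414229-69414348 (KIF23), chr5:69167030-69167149 (CCNB1) and chr18:2571437-2571556 (NDC80).
CCNB2: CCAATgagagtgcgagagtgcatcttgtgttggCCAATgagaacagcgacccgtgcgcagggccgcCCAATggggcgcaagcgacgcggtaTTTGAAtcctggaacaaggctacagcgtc
CDC20: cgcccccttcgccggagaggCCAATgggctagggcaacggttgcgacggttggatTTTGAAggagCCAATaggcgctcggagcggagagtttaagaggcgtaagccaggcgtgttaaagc
PLK1: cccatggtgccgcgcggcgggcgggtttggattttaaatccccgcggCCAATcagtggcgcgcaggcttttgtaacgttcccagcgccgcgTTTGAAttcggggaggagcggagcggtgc
HMMR: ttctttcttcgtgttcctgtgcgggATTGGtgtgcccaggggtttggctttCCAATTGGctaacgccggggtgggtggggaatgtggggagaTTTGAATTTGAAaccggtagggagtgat
ANLN: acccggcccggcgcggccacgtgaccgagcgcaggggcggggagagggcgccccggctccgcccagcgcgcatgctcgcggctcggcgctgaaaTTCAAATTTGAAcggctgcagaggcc
KIF23: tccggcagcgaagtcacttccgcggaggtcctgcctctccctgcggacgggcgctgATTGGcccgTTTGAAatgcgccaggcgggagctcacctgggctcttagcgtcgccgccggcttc
CCNB1: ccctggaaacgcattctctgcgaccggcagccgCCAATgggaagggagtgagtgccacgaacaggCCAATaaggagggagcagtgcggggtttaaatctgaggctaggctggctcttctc
NDC80: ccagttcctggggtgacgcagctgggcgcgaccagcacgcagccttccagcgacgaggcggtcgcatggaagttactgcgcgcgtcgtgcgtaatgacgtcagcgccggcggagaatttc
In CCNB2, CDC20 and PLK1 at least 1 CCAAT lies before TTTGAA, and in ANLN and HMMR copies of the hexamer, on opposite strands in ANLN, stand directly beside each other. A match is a description of letters and does not show a bound site. The 18 members with TTTGAA had a median log2 fold change of 0.18 for PRL-295 against DMSO and 0.30 for CDDO-Me against DMSO, and the 17 without it had medians of 0.20 and 0.22 in the same comparisons.

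Library totals ran from 23383800 to 32942156 counted reads. Genes detected with any read were fewest in CDDO-Me library 1, at 14543, and most numerous in CDDO-Me library 2, at 23271. In CPM (counts scaled to library size, with TMM factors), the 42 genes together summed to 5292 to 5930 with PRL-295, 5869 to 6369 with CDDO-Me and 5332 to 5614 with DMSO. Pooled RNA cannot tell a larger share of cells in G2 and mitosis from more RNA of these genes per cell. CDDO-Me library 2 and PRL-295 library 2 stood apart from the other libraries of their groups, mainly at members with low GC content. CDDO-Me library 2 held the highest CPM of 17 members, and PRL-295 library 2 the highest of 14 and the lowest of 11. Markers of other cell types were low, with summed CPM of 0.518 to 1.68 in PRL-295, 0.125 to 0.781 in CDDO-Me and 1.26 to 2.31 in DMSO libraries for 4 endothelial genes (PECAM1 at 0). The 7 fibroblast genes summed to 7.16 to 7.78 CPM in PRL-295, 9.92 to 13.1 in CDDO-Me and 8.57 to 11.4 in DMSO libraries, with COL3A1, DCN and LUM at 0, and the 5 melanocyte genes, with TYR at 0, to 3.96 to 5.25, 6.10 to 7.13 and 4.78 to 7.99. Keratinocyte markers were present in every library, and 5 of 9 of them rose in CDDO-Me against DMSO, while 7 of 9 were lower in PRL-295 against CDDO-Me at an adjusted p under 0.05. Among all tested genes, 4.65% were called higher in the first of these comparisons and 0.684% lower in the second. The part of the keratinocyte markers in the members' differences was not tested.

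Level per length was compared in the authors' deposited FPKM, which divides counts by gene length and library total. The most abundant member in control cells was CDC20, the activator of the anaphase-promoting complex, at 149 ± 14.0 FPKM in PRL-295, 132 ± 5.47 in CDDO-Me and 150.0 ± 11.4 in DMSO (SD, n = 3 each). UBE2C, the ubiquitin-conjugating enzyme that works with the same complex, followed at 121 ± 14.5, 92.8 ± 17.4 and 106 ± 24.9 FPKM in the same order of groups, and CCNB1, the B1 cyclin, at 146 ± 20.4, 124 ± 20.4 and 102 ± 11 FPKM. In DMSO cells the spreads of UBE2C and CCNB1 overlapped. The lower end of the order in DMSO cells was held by TTK at 1.54 ± 0.480 FPKM, CENPE at 0.604 ± 0.225, SGO1 at 0.584 ± 0.207 and PRC1 at 0.282 ± 0.199, and CENPE, SGO1 and PRC1 did not differ from each other beyond their SDs. PRC1, the microtubule bundler of the midzone, shares its strand and part of its span with AC068831.7, which had 5.66 to 7.26 CPM in PRL-295, 1.41 to 6.78 CPM in CDDO-Me and 4.86 to 5.88 CPM in DMSO libraries, so the counting may have split its reads and its level is uncertain.

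In CDDO-Me against DMSO, 3 of the 42 members rose and 0 fell at an adjusted p under 0.05. The 3 were TTK, a checkpoint kinase, NDC80, a kinetochore subunit, and KIF23, a midzone kinesin. That is 7.14% of the members, all higher. Of all tested genes, 4.65% were called higher, 4.57% lower and 9.22% in either direction. The members' median log2 fold change was 0.23, with 27 positive and 15 negative values, against a median of 0.01 over all tested genes. All 3 CDDO-Me libraries lay above all 3 DMSO libraries for 12 members, against 15.5% of tested genes, and below them for 5 members, against 16.3%. The unadjusted p was under 0.05 for 14 members, 12 higher and 2 lower, against 26% of tested genes, and DESeq2 called 9 higher and AURKB lower. Those 10 are 23.8% of the members, where DESeq2 called 15.5% of the same tested genes. When the trend of counts with GC content and gene length was removed in each library, TTK alone stayed called, and the members' median was 0.12.

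PRL-295 against DMSO gave no called member in either direction, where 0.684% of tested genes were called. The median log2 fold change of the members was 0.21, with 28 positive and 14 negative values, against a median of -0.01 over all tested genes. At an unadjusted p under 0.05 there were 9 members, 8 higher and 1 lower, against 12.9% of tested genes, and DESeq2 called CCNB1 and TTK higher, 4.76% of the members, where it called 3.24% of the tested genes. All 3 PRL-295 libraries lay above all 3 DMSO libraries for 10 members, against 13.5% of tested genes, and below them for 3 members, against 13.7%. With the GC and length trend removed, the members' median was 0.01.

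Set directly against CDDO-Me, at a different concentration, PRL-295 gave no called member either, where 1.59% of tested genes were called. The members' median log2 fold change was -0.005 against -0.007 over all tested genes, with 21 values on each side of 0. At an unadjusted p under 0.05 there were 7 members, 2 higher and 5 lower, against 17.2% of tested genes, and DESeq2 called AURKB higher and CENPE lower, 4.76% of the members against 5.26% of the tested genes. PRL-295 libraries lay wholly above CDDO-Me libraries for 4 members, against 14.4% of tested genes, and wholly below for 1 member, against 10.2%. In the test among the 3 groups, TTK alone of the members passed, with an adjusted p of 0.0387, where 5.68% of tested genes were called.

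**Figure D1:**
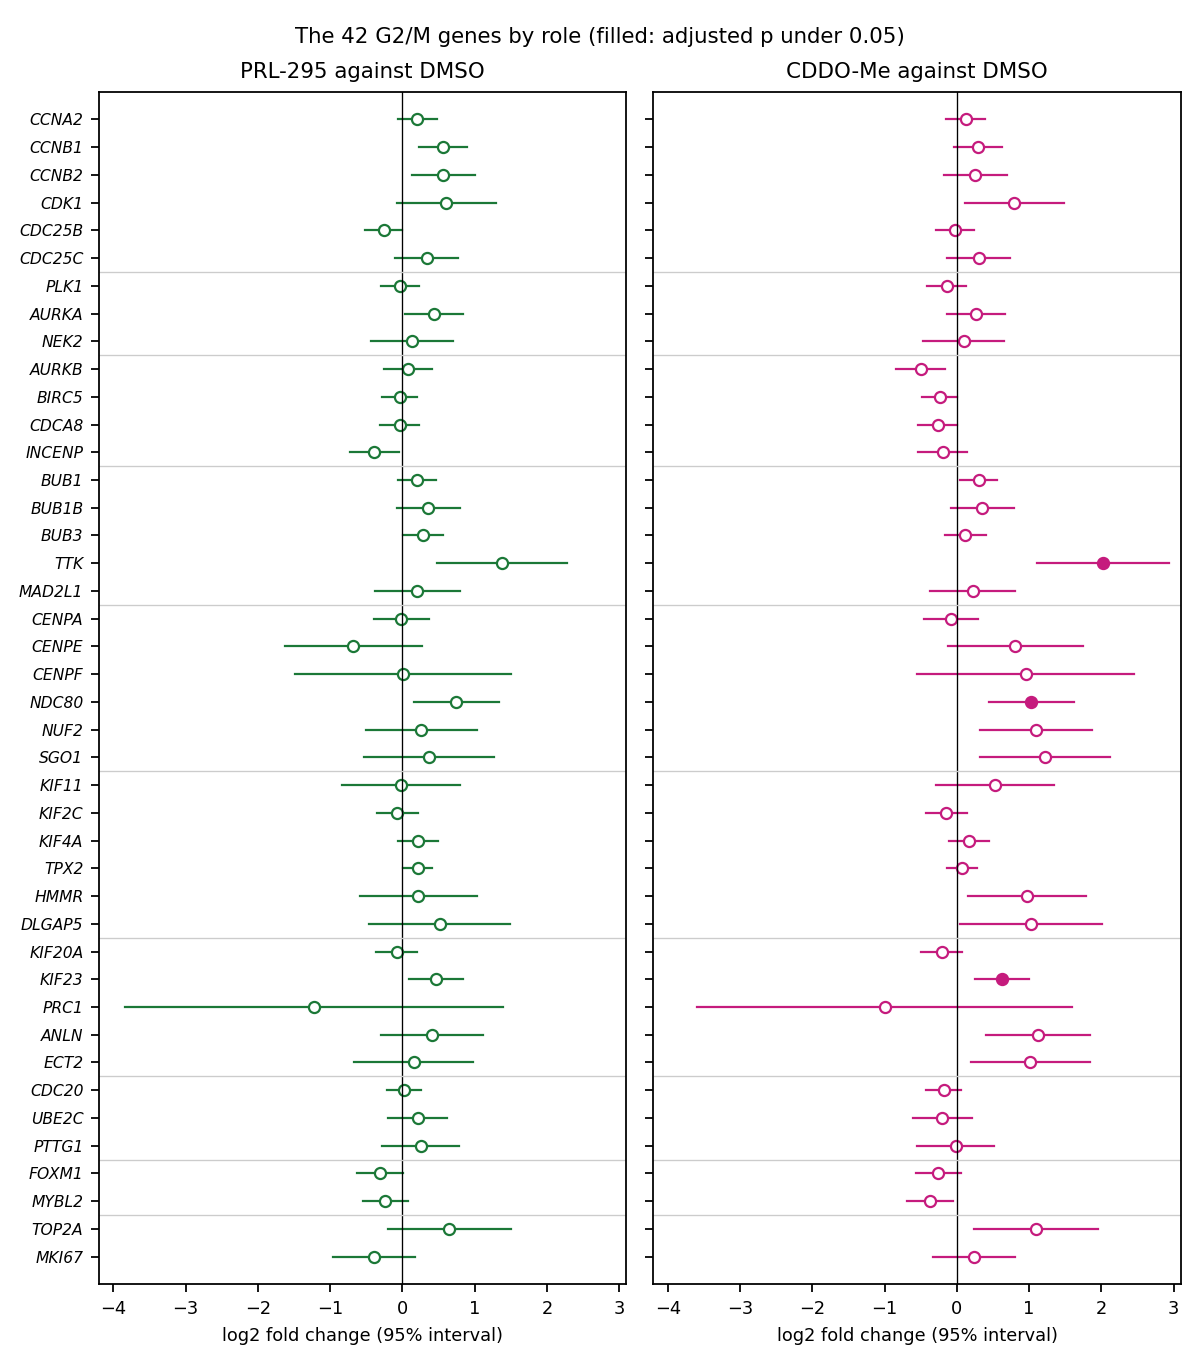
Log2 fold change of each of the 42 genes with its 95% interval, for PRL-295 against DMSO (left) and CDDO-Me against DMSO (right), grouped by role from cyclins at the top to chromosome proteins at the bottom. Filled points have an adjusted p under 0.05, and only TTK, NDC80 and KIF23 in CDDO-Me against DMSO are filled.

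TTK, also called MPS1, is the kinase that starts spindle checkpoint signalling at unattached kinetochores (chr6:80003887-80042527, hg38, plus strand). It had 24.9, 13.2 and 16.6 CPM in PRL-295 libraries 1 to 3, 15.4, 47.3 and 22.6 CPM in CDDO-Me libraries 1 to 3, and 8.87, 7.56 and 4.66 CPM in DMSO libraries 1 to 3. Neither compound group overlapped DMSO, and CDDO-Me library 2 was the highest of the 9 libraries. In CDDO-Me against DMSO it rose by a log2 fold change of 2.02 (95% interval 1.10 to 2.93), a 4.05-fold difference with an adjusted p of 0.0146. Without CDDO-Me library 2 the log2 fold change was 1.42, with an adjusted p of 0.0359. Without DMSO library 2 or 3 the adjusted p was 0.0662 or 0.0622, and the call was lost. In PRL-295 against DMSO the log2 fold change was 1.38 (0.48 to 2.28) with an adjusted p of 0.179, and PRL-295 against CDDO-Me gave -0.64 (-1.52 to 0.24).

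The other checkpoint members are BUB1 and BUB1B, proteins with a kinase fold, BUB3, which carries them to kinetochores, and MAD2L1, which binds and blocks CDC20. None passed the test. Their log2 fold changes ran from 0.20 for both BUB1 and MAD2L1 to 0.36 for BUB1B in PRL-295 against DMSO, and from 0.12 for BUB3 to 0.35 for BUB1B in CDDO-Me against DMSO. BUB1 had 98.5, 92.1 and 89.3 CPM in PRL-295, 96.9, 114 and 89.5 CPM in CDDO-Me, and 83.6, 82.0 and 77.6 CPM in DMSO libraries, so that neither compound group overlapped DMSO, with adjusted p of 0.521 for PRL-295 and 0.131 for CDDO-Me. BUB1B shares its strand and span with the readthrough gene BUB1B-PAK6, which had at most 0.339 CPM in any library.

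NDC80 encodes the subunit that names the microtubule-binding complex of the outer kinetochore (chr18:2571511-2616635, hg38, plus strand). It had 29.8, 16.6 and 20.5 CPM in PRL-295 libraries, 23.5, 36.5 and 21.6 CPM in CDDO-Me libraries, and 13.6, 11.0 and 15.3 CPM in DMSO libraries. DMSO libraries lay below those of both compounds. In CDDO-Me against DMSO it rose by a log2 fold change of 1.03 (0.44 to 1.62), 2.05-fold, with an adjusted p of 0.0379, and the call was made under 10 of 20 alternative settings. Without CDDO-Me library 2 the log2 fold change was 0.74 with an adjusted p of 0.134, and with the GC and length trend removed it was 0.61 with an adjusted p of 0.0603. In PRL-295 against DMSO it was 0.75 (0.16 to 1.33) with an adjusted p of 0.264.

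NUF2, the partner of NDC80 in that complex, had 24.9, 10.1 and 19.4 CPM in PRL-295, 20.3, 48.6 and 28.1 CPM in CDDO-Me, and 15.6, 15.7 and 14.1 CPM in DMSO libraries. PRL-295 libraries lay on both sides of DMSO, CDDO-Me libraries all above it, with log2 fold changes of 0.26 (adjusted p 0.845) and 1.10 (adjusted p 0.0749). SGO1, shugoshin, which guards cohesin at centromeres, was a low-level gene with 3.16, 2.25 and 3.22 CPM in PRL-295, 7.45, 4.75 and 3.35 CPM in CDDO-Me, and 2.03, 3.13 and 1.53 CPM in DMSO libraries. Its log2 fold change was 0.36 in PRL-295 against DMSO (adjusted p 0.802) and 1.22 in CDDO-Me against DMSO (adjusted p 0.0863). CENPA, the histone H3 variant of centromeres, differed by a log2 fold change of -0.02 in PRL-295 and -0.08 in CDDO-Me against DMSO, with a 95% interval of -0.46 to 0.30 for the second.

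CENPE is the kinesin of the fibrous corona and CENPF a large coiled-coil protein of the same layer, and both varied widely. CENPE had 3.201, 2.40 and 5.07 CPM in PRL-295, 4.92, 13.6 and 11.5 CPM in CDDO-Me, and 4.70, 8.23 and 4.16 CPM in DMSO libraries, with a log2 fold change of -1.49 (-2.45 to -0.53) for PRL-295 against CDDO-Me and an adjusted p of 0.118. CENPF had 183, 8.27 and 111 CPM in PRL-295, 175, 222 and 188 CPM in CDDO-Me, and 116, 81.2 and 104 CPM in DMSO libraries. All CDDO-Me libraries lay above DMSO, and PRL-295 library 2 was far below every other library. Its log2 fold change was 0.00 in PRL-295 against DMSO, with an interval of -1.49 to 1.5, and 0.96 in CDDO-Me against DMSO, with an interval of -0.55 to 2.46. Without PRL-295 library 2, which enters the shared estimate of spread, the values for CENPF were 0.55 (adjusted p 0.310) in PRL-295 against DMSO and 0.96 (adjusted p 0.0122) in CDDO-Me against DMSO.

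KIF23 encodes MKLP1, the kinesin of centralspindlin, the midzone complex that recruits the cytokinesis machinery (chr15:69414246-69448427, hg38, plus strand). It had 135, 93.1 and 125 CPM in PRL-295 libraries, 132, 144 and 120 CPM in CDDO-Me libraries, and 68.2, 92.9 and 95.4 CPM in DMSO libraries. CDDO-Me libraries lay wholly above DMSO, while PRL-295 library 2 fell within the DMSO range. In CDDO-Me against DMSO it rose by a log2 fold change of 0.62 (0.25 to 0.99), 1.54-fold, with an adjusted p of 0.0445, and in PRL-295 against DMSO it was 0.46 (0.09 to 0.83) with an adjusted p of 0.274. The call was made under 8 of 20 alternative settings. With the GC and length trend removed the log2 fold change was 0.24 with an adjusted p of 0.314. An antisense gene, RP11-253M7.1, overlaps KIF23 and had 0.724 to 1.03 CPM in PRL-295, 1.46 to 4.85 CPM in CDDO-Me and 1.30 to 1.44 CPM in DMSO libraries.

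KIF23 was the called member with the highest FPKM. Its log2 CPM over the 9 libraries was most like that of KIAA0196 (Pearson r = 0.996), ZNF354A (0.969) and AC005336.4 (0.968) among all tested genes. Among the members, NDC80 (0.854), ANLN (0.816) and CDK1 (0.779) were the most like it. These correlations are over 9 libraries in 3 groups, and the libraries differ in their trend with GC content. They are given as a description.

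ANLN, anillin, which links actin, myosin and septins in the cleavage furrow, had 190.1, 65.5 and 131 CPM in PRL-295, 152, 284 and 198 CPM in CDDO-Me, and 88.0, 99.0 and 104 CPM in DMSO libraries. CDDO-Me lay wholly above DMSO and PRL-295 on both sides of it, with log2 fold changes of 1.12 (0.41 to 1.84, adjusted p 0.0538) and 0.41 (-0.30 to 1.12, adjusted p 0.670). ECT2, the RhoA exchange factor that centralspindlin recruits, had 67.8, 20.8 and 42.4 CPM in PRL-295, 58.2, 119 and 60.5 CPM in CDDO-Me, and 39.0, 38.3 and 40.3 CPM in DMSO libraries. Its log2 fold change in CDDO-Me against DMSO was 1.02 with an adjusted p of 0.114. KIF20A, the kinesin MKLP2 that carries the passenger complex to the midzone, gave -0.08 in PRL-295 and -0.21 in CDDO-Me against DMSO, with an interval of -0.49 to 0.07 for the second. PRC1 had 0.492 to 0.953 CPM in PRL-295, 0 to 1.82 CPM in CDDO-Me and 0.594 to 2.80 CPM in DMSO libraries. Its interval in CDDO-Me against DMSO was -3.59 to 1.59, and differences within it could not be detected from the few reads counted for PRC1. As its overlap with AC068831.7 may have split its reads, the low counts need not reflect a low transcript level.

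**Figure D2:**
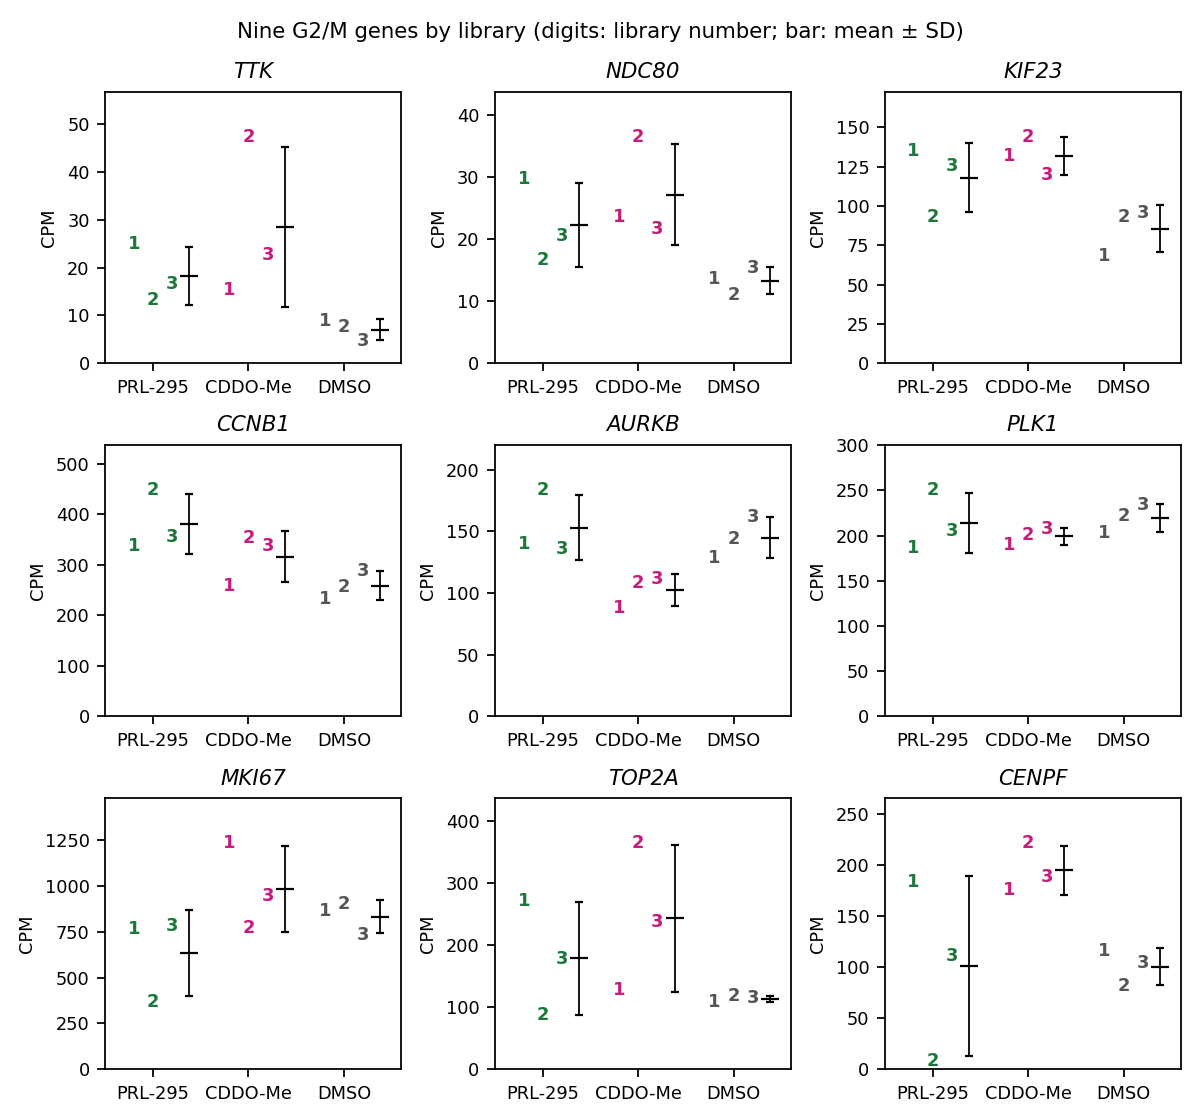
Scaled counts (CPM) of 9 members in each library, with digits for the library number and the mean ± SD of each group beside them (n = 3 each). TTK, NDC80 and KIF23 (top row) have every CDDO-Me library above every DMSO library, and CENPF in PRL-295 library 2 stands at 8.27 CPM against 183 and 111 CPM in the other PRL-295 libraries.

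Among the cyclins and their kinase, CCNB1 had 338, 448 and 356 CPM in PRL-295, 259, 353 and 336 CPM in CDDO-Me, and 232, 255 and 288 CPM in DMSO libraries (chr5:69167010-69178245, hg38). PRL-295 libraries all lay above DMSO, whereas CDDO-Me library 1 fell within the DMSO range. The log2 fold change was 0.56 (0.23 to 0.89, adjusted p 0.137) for PRL-295, 0.29 (-0.04 to 0.62, adjusted p 0.251) for CDDO-Me, and 0.27 (-0.06 to 0.60, adjusted p 0.392) for PRL-295 against CDDO-Me. CCNB2, the B2 cyclin, gave 0.57 (0.13 to 1.00, adjusted p 0.256) for PRL-295 and 0.26 (adjusted p 0.452) for CDDO-Me against DMSO, with 119.8 to 154 CPM in PRL-295, 82.2 to 131 in CDDO-Me and 69.7 to 111 in DMSO libraries. CCNA2, the cyclin of S and G2 phase, gave 0.21 and 0.12 in the same comparisons.

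CDK1, the kinase of mitotic entry, had 82.5, 51.4 and 73.6 CPM in PRL-295, 44.1, 121 and 71.3 CPM in CDDO-Me, and 36.5, 48.8 and 50.9 CPM in DMSO libraries. All PRL-295 libraries lay above DMSO, although library 2 by little, while CDDO-Me library 1 fell within the DMSO range and the other CDDO-Me libraries lay above it. The log2 fold change was 0.61 (-0.08 to 1.29, adjusted p 0.458) for PRL-295 and 0.79 (0.11 to 1.48, adjusted p 0.135) for CDDO-Me, and with the GC and length trend removed the CDDO-Me value was -0.03. The phosphatases CDC25B and CDC25C, which act on the CDK1 complexes, gave -0.26 and 0.34 in PRL-295 and -0.03 and 0.30 in CDDO-Me against DMSO, and none passed. CDC25B in PRL-295 against CDDO-Me was -0.23 (adjusted p 0.345) as counted and -0.35 (adjusted p 0.0390) with the trend removed.

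PLK1, the Polo-like kinase, had 187, 250.4 and 205 CPM in PRL-295, 189.6, 200.2 and 208 CPM in CDDO-Me, and 202.5, 221 and 233 CPM in DMSO libraries (chr16:23677656-23690367, hg38). All groups overlapped, with log2 fold changes of -0.03 (-0.30 to 0.23) for PRL-295 and -0.14 (-0.41 to 0.13) for CDDO-Me against DMSO. AURKA, the Aurora kinase of centrosomes, gave 0.44 (0.04 to 0.85, adjusted p 0.340) and 0.27 (-0.13 to 0.67, adjusted p 0.388), and NEK2, which splits centrosomes, gave 0.13 and 0.10.

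The chromosomal passenger complex, which corrects faulty attachments and later acts in cytokinesis, has AURKB as its kinase, with INCENP, survivin (BIRC5) and borealin (CDCA8). AURKB had 139.8, 184 and 136 CPM in PRL-295, 87.5, 108 and 112 CPM in CDDO-Me, and 128.5, 144 and 162 CPM in DMSO libraries (chr17:8204733-8210600, hg38). CDDO-Me libraries lay below all libraries of the other groups. The log2 fold change was -0.50 (-0.84 to -0.17, adjusted p 0.0621) in CDDO-Me against DMSO and 0.08 (-0.25 to 0.41) in PRL-295 against DMSO. Set against CDDO-Me, PRL-295 gave 0.58 (0.25 to 0.91) with an adjusted p of 0.0872. With the GC and length trend removed, AURKB gave -0.16 in CDDO-Me against DMSO and 0.32 in PRL-295 against CDDO-Me, with adjusted p of 0.505 and 0.183. BIRC5, CDCA8 and INCENP gave -0.24, -0.27 and -0.19 in CDDO-Me against DMSO, with adjusted p of 0.200, 0.203 and 0.472, and -0.03, -0.04 and -0.39 in PRL-295 against DMSO, with adjusted p of 0.955, 0.959 and 0.322.

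TPX2, which activates AURKA and nucleates microtubules, had 379, 400.3 and 373 CPM in PRL-295, 336, 353 and 358 CPM in CDDO-Me, and 309, 354 and 333 CPM in DMSO libraries (chr20:31739271-31801805, hg38). PRL-295 libraries lay above those of both other groups, with a log2 fold change of 0.21 (0.00 to 0.41, adjusted p 0.376) against DMSO, while CDDO-Me gave 0.07 (-0.13 to 0.28) against DMSO. HMMR and DLGAP5 (HURP), spindle assembly factors, gave 0.97 (adjusted p 0.124) and 1.03 (adjusted p 0.173) in CDDO-Me against DMSO, and 0.22 and 0.51 in PRL-295 against DMSO. HMMR had 52.2, 15.8 and 40.7 CPM in PRL-295, 56.3, 84.4 and 42.9 CPM in CDDO-Me, and 34.4, 32.7 and 26.5 CPM in DMSO libraries, and PRL-295 library 2 was again the lowest. KIF11 (Eg5), which pushes the spindle poles apart, had 96.7, 28.6 and 70.1 CPM in PRL-295, 65.1, 133 and 87.6 CPM in CDDO-Me, and 71.1, 71.0 and 55.7 CPM in DMSO libraries, with an adjusted p of 0.993 for PRL-295 and 0.399 for CDDO-Me against DMSO. KIF2C, a microtubule depolymerase, and KIF4A, a chromosome-bound kinesin, gave -0.07 and 0.21 in PRL-295 and -0.14 and 0.17 in CDDO-Me against DMSO.

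CDC20 had 277, 344.5 and 304 CPM in PRL-295, 263, 261 and 280.1 CPM in CDDO-Me, and 290.3, 293 and 329.5 CPM in DMSO libraries (chr1:43358955-43363203, hg38). CDDO-Me libraries lay below DMSO by little, with a log2 fold change of -0.18 (-0.42 to 0.06, adjusted p 0.316), and PRL-295 overlapped DMSO at 0.02 (-0.22 to 0.26). UBE2C gave 0.21 in PRL-295 and -0.20 in CDDO-Me against DMSO, and PTTG1 (securin), the inhibitor of separase, 0.25 and -0.02. UBE2C in PRL-295 against CDDO-Me was 0.41 (0.01 to 0.82) with an adjusted p of 0.286. The table also holds pseudogenes of both CDC20 and UBE2C, of which CDC20P1 had 0 counts in all libraries and UBE2CP3 at most 0.0423 CPM.

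MYBL2 (B-Myb), which binds MuvB to switch on the G2 wave, had 213, 243 and 229.9 CPM in PRL-295, 253, 172 and 199 CPM in CDDO-Me, and 292, 277 and 239 CPM in DMSO libraries (chr20:43667019-43716496, hg38). The groups overlapped, with log2 fold changes of -0.23 (-0.55 to 0.08, adjusted p 0.550) for PRL-295 and -0.37 (-0.69 to -0.05, adjusted p 0.131) for CDDO-Me against DMSO. FOXM1, the forkhead factor that acts with it, gave -0.31 (-0.63 to 0.01, adjusted p 0.395) and -0.25 (-0.57 to 0.06, adjusted p 0.292). Neither factor passed the test in any comparison. RHNO1 overlaps FOXM1 and had 56.2 to 59.5 CPM in PRL-295, 49.6 to 55.6 CPM in CDDO-Me and 55.8 to 60.8 CPM in DMSO libraries.

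MKI67 (Ki-67), the surfactant of mitotic chromosomes and the common marker of cycling cells, had 763, 364 and 781 CPM in PRL-295, 1234, 770.4 and 944 CPM in CDDO-Me, and 866, 901 and 729.9 CPM in DMSO libraries (chr10:128096659-128126385, hg38). PRL-295 library 2 was the lowest and CDDO-Me library 1 the highest, and the groups overlapped. The log2 fold change was -0.39 (-0.95 to 0.18, adjusted p 0.587) for PRL-295 and 0.24 (-0.33 to 0.81, adjusted p 0.606) for CDDO-Me against DMSO, and -0.63 (-1.20 to -0.06, adjusted p 0.246) for PRL-295 against CDDO-Me. TOP2A, the topoisomerase that untangles sister chromatids, had 270.4, 88.0 and 177 CPM in PRL-295, 127, 364 and 237 CPM in CDDO-Me, and 109, 118 and 114 CPM in DMSO libraries. Its DMSO libraries were close together and those of the compounds ranged widely, with log2 fold changes of 0.65 (-0.21 to 1.51) and 1.09 (0.23 to 1.96, adjusted p 0.105).

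The members' fold changes correlated with the GC content of their transcripts and, in PRL-295 against CDDO-Me, about as strongly with gene length. GC content ran from 35.4% in CENPE to 60.2% in MYBL2, with a median of 45.0% against 49.8% over all tested genes. Across the 42 members the Pearson correlation of log2 fold change with GC content was -0.44 for PRL-295 against DMSO, -0.77 for CDDO-Me against DMSO and 0.61 for PRL-295 against CDDO-Me. Over all tested genes it was -0.31, -0.37 and 0.17 in the same comparisons. With log2 gene length the correlation was -0.20, 0.33 and -0.63 across the members and 0.00, 0.10 and -0.12 over all tested genes. With both trends removed, the members' correlations were -0.09, -0.27 and 0.23 for GC content and -0.28, 0.03 and -0.38 for length. The 21 members of lower GC content had a median log2 fold change of 0.29 for PRL-295 and 0.81 for CDDO-Me against DMSO, and the 21 of higher GC content -0.03 and -0.14. With the trend of GC content and length removed in each library, the 21 of lower GC content gave 0.07 and 0.24 and the 21 of higher GC content -0.02 and 0.08, in the same order of comparisons. TTK, NDC80 and KIF23 all belonged to the 21 of lower GC content, at 38.8%, 40.8% and 41.8%. The part of GC content and of length in these differences was not tested beyond this correction.

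**Figure D3:**
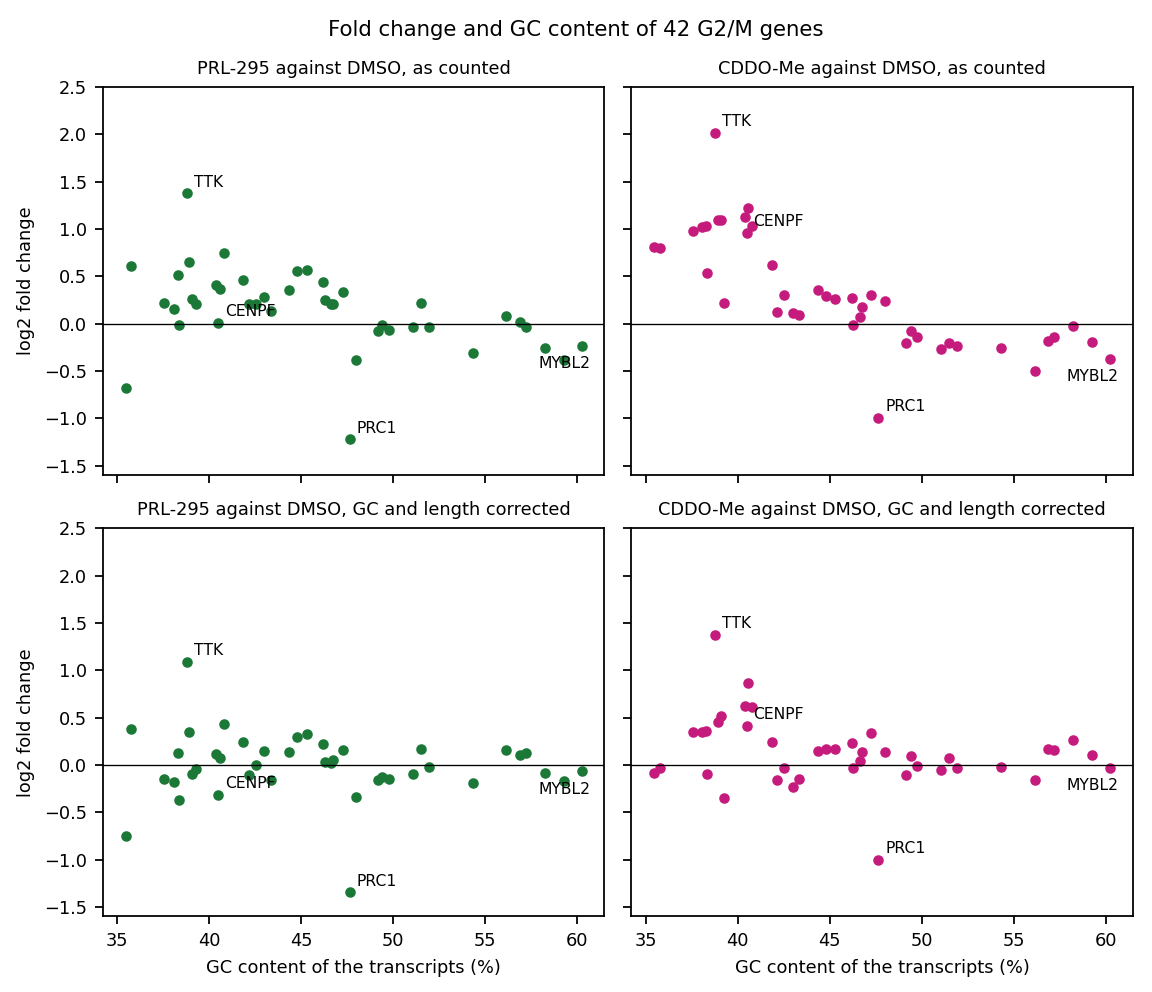
Log2 fold change against the GC content of the transcripts (%) for the 42 genes, PRL-295 against DMSO on the left and CDDO-Me against DMSO on the right, as counted (top) and with the GC and length trend removed (bottom). In the upper right panel the points run from 2.02 at TTK to -0.50 at AURKB, with PRC1 apart at -0.998.

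Deviations from the mean of the 9 libraries were taken in edgeR's log2 CPM, which adds a small prior count. The 21 lower-GC members averaged 0.36, -0.66 and 0.08 in the PRL-295 libraries in numerical order, 0.03, 0.83 and 0.30 in the CDDO-Me libraries, and -0.35, -0.25 and -0.34 in the DMSO libraries. The 21 higher-GC members stayed between -0.04 and 0.14 in PRL-295, -0.24 and 0.04 in CDDO-Me, and -0.03 and 0.13 in DMSO libraries. Within the PRL-295 group, library 2 was thus low and library 1 high at the lower-GC members. Over all tested genes, the correlation of each library's deviation with GC content was -0.35, 0.27 and -0.08 in the PRL-295 libraries in numerical order, -0.01, -0.56 and -0.15 in the CDDO-Me libraries, and 0.27, 0.21 and 0.28 in the DMSO libraries. The median SD of log2 CPM over the members was 0.20 in PRL-295, 0.28 in CDDO-Me and 0.20 in DMSO, against 0.22, 0.37 and 0.23 over all tested genes.

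**Figure D4:**
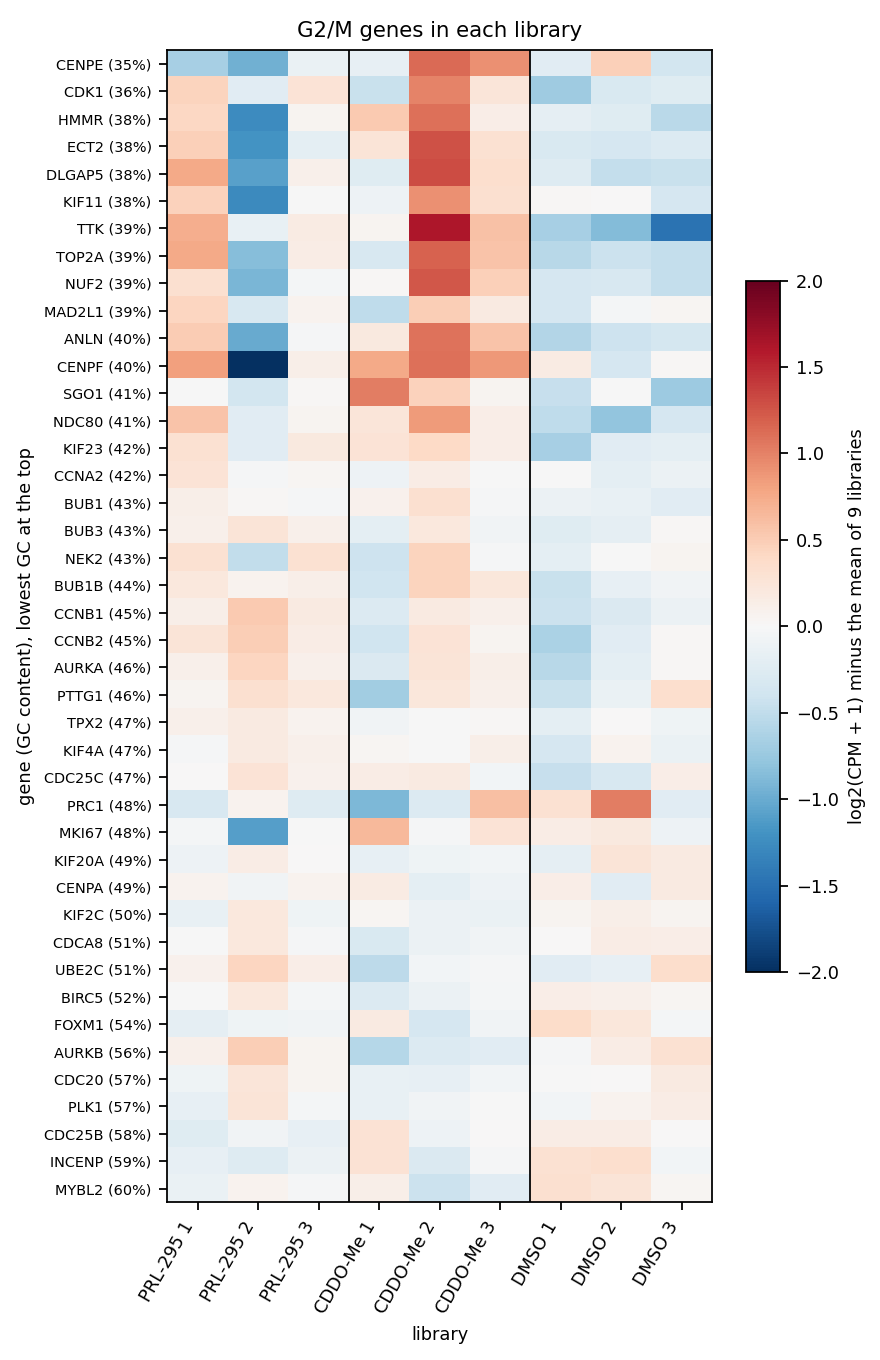
Log2(CPM + 1) of each gene minus its mean over the 9 libraries, with genes ordered by GC content (lowest at the top) and libraries in columns, PRL-295, CDDO-Me and DMSO from left to right. Values beyond the ends of the colour scale take the end colour, and the lower-GC genes at the top are high in CDDO-Me library 2 and low in PRL-295 library 2.

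The call count depended on which libraries were included. Without DMSO library 2 or 3, 0 members were called in CDDO-Me against DMSO, where 2.47% and 3.87% of the tested genes were called. Without DMSO library 1 or PRL-295 library 3, TTK alone was called there, where 2.94% and 4.8% of the tested genes were. Without CDDO-Me library 2, TTK was the only member called in CDDO-Me against DMSO, where 3.88% of the tested genes were called, and NUF2, ANLN, ECT2 and TOP2A gave log2 fold changes of 0.66, 0.83, 0.58 and 0.66. Without PRL-295 library 2, 9 members were called higher in that comparison (TTK, CENPF, NDC80, NUF2, HMMR, KIF23, ANLN, ECT2 and TOP2A) and AURKB was called lower, which is 23.8% of the members against 12.5% of the tested genes. Without that library the PRL-295 against DMSO values of HMMR, DLGAP5, KIF11, ANLN, ECT2 and TOP2A were 0.58, 0.88, 0.34, 0.73, 0.49 and 0.98, and that of MKI67 was -0.10, with adjusted p from 0.240 for ANLN to 0.898 for MKI67. Without CDDO-Me library 1, 9 were called higher, among them CDK1, BUB1B and CENPE, and MYBL2 was called lower, again 23.8% of the members, against 17.2% of the tested genes. In PRL-295 against DMSO, TTK was called without CDDO-Me library 2, where 1.68% of the tested genes were called, and CCNB1 and TTK without CDDO-Me library 1, where 3.63% were.

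Other genes of the division machinery were read from 8 lists of 150 genes. In PRL-295 against DMSO and in PRL-295 against CDDO-Me, 0 of the genes in these lists passed, where DESeq2 called 6 in each comparison. Of the tested genes, 0.684% and 1.59% passed in these comparisons, and DESeq2 called 3.24% and 5.26% of them. For PRL-295 against DMSO the unadjusted p was under 0.05 for 3 of 18 other spindle and kinesin genes, 6 of 26 other kinetochore genes, 3 of 16 tested subunits and regulators of the anaphase-promoting complex, 3 of 18 condensin and cohesin genes, 3 of 17 regulators of CDK1, 2 of 11 exit phosphatase genes, 2 of 16 MuvB and E2F genes, and 7 of 27 G1/S and replication genes. The share of all tested genes in that comparison was 12.9%. The same counts for PRL-295 against CDDO-Me were 4, 3, 3, 3, 3, 1, 2 and 12, where 17.2% of all tested genes had such a p, and the 12 of 27 are 44.4% of the G1/S list.

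In CDDO-Me against DMSO, 2 of the 26 other kinetochore genes rose and 0 fell, which is 7.69% of them, where 9.22% of all tested genes were called. CENPI and CENPN, subunits of the inner kinetochore network, rose by log2 fold changes of 1.33 (adjusted p 0.0101) and 0.60 (adjusted p 0.0317). CENPI had 27.7, 18.0 and 17.7 CPM in PRL-295, 22.1, 32.7 and 24.3 CPM in CDDO-Me, and 7.94, 12.0 and 11.5 CPM in DMSO libraries, and neither compound group overlapped DMSO. CENPN had 48.5, 50.3 and 47.8 CPM in PRL-295, 39.3, 50.2 and 42.5 CPM in CDDO-Me, and 25.1, 31.4 and 30.6 CPM in DMSO libraries, also without overlap, and its PRL-295 against DMSO value was 0.75 with an adjusted p of 0.0511. Both stayed called in CDDO-Me against DMSO with the GC and length trend removed. In PRL-295 against DMSO this correction gave 0.55 for CENPN (adjusted p 0.0408) and 0.73 for CENPI (adjusted p 0.0866), where it called 1.34% of the tested genes. The list's median was 0.41. In the lists that follow, called genes made up 5.56% of the other spindle and kinesin genes and 12.5% of the anaphase-promoting complex list. They made up 16.67% of the condensin, cohesin and separase genes, 17.65% of the regulators of CDK1 and 18.18% of the exit phosphatases. Of the MuvB and E2F list 0% and of the G1/S list 18.52% were called.

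In the same comparison, 1 of the 18 other spindle and kinesin genes fell: KIF22, the chromokinesin Kid, by a log2 fold change of -0.48 (adjusted p 0.0257), in a list with a median of 0.23. The anaphase-promoting complex had 1 of 16 tested genes higher, CDC27 at 1.15 (adjusted p 0.0385), and 1 lower, ANAPC2 at -0.47 (adjusted p 0.0402), both core subunits, with a list median of -0.00. Of 18 condensin, cohesin and separase genes, the cohesin subunit STAG1 rose by 0.99 (adjusted p 0.0345), the cohesin release factor WAPL rose by 0.74 (adjusted p 0.0445), and ESPL1, separase, differed by -0.67 (adjusted p 0.0115), where the list's median was 0.73. In the test with the GC and length trend removed, KIF22, CDC27, ANAPC2, STAG1 and WAPL had adjusted p of 0.21, 0.12, 0.47, 0.090 and 0.50, and ESPL1 of 0.033.

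Among 17 regulators of CDK1 and the G2 checkpoint, 3 rose and 0 fell in CDDO-Me against DMSO. SFN, 14-3-3 sigma, which holds CDK1 complexes in the cytoplasm, rose by 0.58 (adjusted p 0.00556), CDKN1A, the p21 inhibitor, by 0.52 (adjusted p 0.0226), and WEE1, the kinase that inhibits CDK1, by 0.53 (adjusted p 0.0418). CDKN1A had 144, 175 and 168 CPM in PRL-295, 232, 216 and 232 CPM in CDDO-Me, and 174, 140.2 and 161 CPM in DMSO libraries, so that CDDO-Me alone lay apart. WEE1 had 70.2, 75.8 and 61.0 CPM in PRL-295, 69.7, 90.8 and 73.4 CPM in CDDO-Me, and 51.8, 51.04 and 58.8 CPM in DMSO libraries, and DMSO lay below both compound groups. With the GC and length trend removed, SFN and CDKN1A gave 1.01 and 0.85 and stayed called, and WEE1 gave 0.07 with an adjusted p of 0.88. In PRL-295 against DMSO the corrected values were 0.43 for SFN (adjusted p 0.0176), 0.18 for CDKN1A (adjusted p 0.586) and 0.25 for WEE1 (adjusted p 0.721). In PRL-295 against CDDO-Me they were -0.57 for SFN (adjusted p 0.00213), -0.67 for CDKN1A (adjusted p 0.00408) and 0.18 for WEE1 (adjusted p 0.656). SFN is also a keratinocyte gene. In CDDO-Me against DMSO the 9 keratinocyte markers had a median log2 fold change of 0.38, against 0.01 over all tested genes. Whether the rise of SFN is linked to these markers was not tested.

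Among 11 phosphatase genes of mitotic exit in CDDO-Me against DMSO, PPP2CA, a catalytic subunit of PP2A, rose by 0.71 (adjusted p 0.0472) and CDC14B by 0.48 (adjusted p 0.0445), with 0.34 and 0.22 as their adjusted p once the GC and length trend was removed. None of 16 MuvB, DREAM and E2F genes was called, with 6 at an unadjusted p under 0.05, and E2F1, an activator of S-phase genes, gave -0.16 in PRL-295 and -0.34 in CDDO-Me against DMSO with adjusted p of 0.655 and 0.104. Of 27 G1/S and replication genes, 5 fell and 0 rose, among them the helicase subunits MCM2 (-0.67), MCM3 (-0.52) and MCM7 (-0.49) and the GINS subunit GINS2 (-0.60). With the GC and length trend removed, MCM2 (-0.38, adjusted p 0.0284) and MCM3 (-0.32, adjusted p 0.0292) stayed called and MCM7 (-0.21, adjusted p 0.0805) and GINS2 (-0.40, adjusted p 0.0987) did not, and the list then had 3 genes lower and 1 higher. The median was 0.23 for the 42 mitotic members and -0.11 for the G1/S list. In PRL-295 against CDDO-Me, 21 of the 42 mitotic values were positive, and 26 of the 27 G1/S values were, with a median of 0.36, where 8033 of 16239 tested genes were positive. With the GC and length trend removed, the members and the G1/S list had medians of 0.12 and -0.11 in CDDO-Me against DMSO. In PRL-295 against CDDO-Me these medians were -0.07 and 0.26.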

How the data were processed

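The 42 genes and the 8 other lists of division genes were chosen with earlier results of these data known, so no list here is independent evidence. Per the labels' protocols, a Qiagen kit was used for total RNA, STAR 2.5 for aligning read pairs to hg38, and HTSeq 0.6.1 for counting. The annotation release and the strand setting are not given in the sources used here, so reads of overlapping, antisense or near-identical genes cannot be told apart. The authors deposited raw counts per gene, all whole numbers, and FPKM, which equalled count per gene length and library total for 100% of values within 0.1%.

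Differences were tested on the counts by edgeR 4.0.16 in R 4.3.3 (quasi-likelihood test) in a fit of all 9 libraries, with filterByExpr by group, TMM scaling and Benjamini-Hochberg adjustment over 16239 genes at a threshold of 0.05. That fit also gave the 95% intervals. Depending on the library, 3 counts equal 0.0911 to 0.128 CPM, a floor that covers counting error only. GC content came from the GENCODE v29 transcripts, and its trend was removed with a spline of 5 degrees of freedom for GC content and for length. Alternatives used DESeq2 1.42.0, limma 3.58.1 on log2(FPKM + 1) and log2(FPKM + 0.1), other scalings and filters, the 6 libraries compared, a replicate block, and each library left out. The test was checked on simulated counts. These held no GC or length trend, so the GC and length correction was not checked in this way. All members may be named, with values in every library for those called and, in each role group without a call, for the member of highest FPKM, and values of some others were added after they were seen. In each other list, up to 4 called genes with the largest change were named, or the 2 with the highest CPM, besides CDKN1A, WEE1 and E2F1. Of the marker lists of other cell types, 1 is not reported here.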

Additional observations from a re-analysis of the deposited data

How the results depend on the processing

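In CDDO-Me against DMSO, members called higher, 3 as reported, numbered 9 with DESeq2, 12 with no filter, 6 with only the 6 libraries compared, 1 with the GC and length correction, 1 with limma on log2(FPKM + 1) and 1 with limma on log2(FPKM + 0.1), and members called lower, 0 as reported, numbered 1 with DESeq2 and 1 with no filter. Of the 16239 genes tested, 9.22% were called in either direction as reported, 15.5% with DESeq2, 15.1% with no filter, 7.1% with the GC and length correction, and 8.94% and 8.52% with limma at the larger and smaller pseudocount. With the 6 libraries compared, 7.86% of 15670 of them were. Leaving out each library in turn gave 0 to 9 higher and 0 to 1 lower, where 2.47% to 17.2% of the tested genes were called. In PRL-295 against DMSO, 2 members were called higher with DESeq2, 6 with no filter, 1 with the 6 libraries compared and 0 to 2 with a library left out, against 0 as reported. Of the tested genes, 3.24%, 5.07%, 4.22% and 0.203% to 3.63% were called in these settings, against 0.684% as reported. In PRL-295 against CDDO-Me, 1 was called higher and 1 lower with DESeq2, 1 higher and 8 lower with no filter, 1 lower with the GC and length correction, and 0 to 1 lower with a library left out. The shares of the tested genes called were 5.26%, 7.62%, 3.1% and 0.369% to 1.76% in the same order, against 1.59% as reported. In the test among the 3 groups, the members called were 9 with DESeq2, 17 with no filter, 2 with the GC and length correction, 0 with either use of limma and 0 to 8 with a library left out, against 1 as reported. That test called 14.6%, 16.9% and 6.29% of the tested genes in the first settings and 5.62% and 5.39% with limma. With a library left out it called 1.77% to 11.8%, against 5.68% as reported.

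The members' median log2 fold change in PRL-295 against DMSO was 0.008 with the GC and length correction and 0.042 to 0.247 with a library left out, and in CDDO-Me against DMSO 0.104 to 0.282. Genes called in the 8 other lists numbered 33 in CDDO-Me against DMSO, 6 in PRL-295 against DMSO and 6 in PRL-295 against CDDO-Me with DESeq2, and 45, 17 and 27 in the same order with no filter. Of the tested genes, 15.5%, 3.24% and 5.26% were called with DESeq2 and 15.1%, 5.07% and 7.62% with no filter. In PRL-295 against DMSO there were 9 with the 6 libraries compared and 2 with the GC and length correction, and in PRL-295 against CDDO-Me 4 with the GC and length correction and 1 with limma on log2(FPKM + 1). The shares of the tested genes were 4.22%, 1.34%, 3.1% and 1.65% in the same order. A library left out gave 2 to 53 in CDDO-Me against DMSO and 0 to 7 in PRL-295 against DMSO, where 2.47% to 17.2% and 0.203% to 3.63% of the tested genes were called. The cause of these shifts was not tested.

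The labels do not say whether same-numbered libraries were paired. Their deviations from the group means correlated from -0.137 to 0.104, which cannot show whether they shared a culture or batch. With a replicate block, 1 member was called higher in CDDO-Me against DMSO, where 5.32% of all tested genes were called. The test among the 3 groups then called 0 members and 2.83% of all tested genes. The other lists had 8 calls in CDDO-Me against DMSO and 1 in PRL-295 against CDDO-Me, where 0.961% of all tested genes were called in the second. The GC and length correction with the replicate block gave 1 member higher in CDDO-Me against DMSO, or 2.38% of the members. The members' medians were then 0.104 for CDDO-Me and 0.008 for PRL-295 against DMSO. The other lists had 8, 2 and 5 calls for CDDO-Me against DMSO, PRL-295 against DMSO and PRL-295 against CDDO-Me. Of all tested genes, 6.21%, 1.17% and 2.99% were called in the same order.

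No called value changed sign under any of the 20 alternatives. The call of TTK in CDDO-Me against DMSO was made in 18 of them, that of NDC80 in 10 and that of KIF23 in 8. The widest standard errors of the log2 fold change among the members in CDDO-Me against DMSO were 1.18 for PRC1 and 0.68 for CENPF.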
